A study of Mus musculus with 9 samples.

Results

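Ins1, Ins2 and Iapp encode the hormones that a pancreatic beta cell stores and releases together, and they were followed here in mouse tumours made of a pancreatic neuroendocrine tumour line. The members are the 3 rows of the deposited expression table with these gene names, of 21944 genes kept from it, and the ratio of Ins1 to Ins2 was taken in each library. They were chosen by name, selected on FPKM values of these same 9 libraries that were already known, so their levels and differences are a description and carry no test. Total RNA of 9 tumour samples was sequenced in 3 groups of 3. The liver metastases (metastases 1, 2 and 3) came from N134-RHAMMB cells, as did the N134-RHAMMB subcutaneous tumours (numbered 1, 2 and 4). N134 subcutaneous tumours (1, 2 and 3) came from the N134 line. All 3 groups grew in the same host, NOD.Cg-PrkdcscidIl2rgtm1Wjl/SzJ (NSG) mice, a strain without mature lymphocytes or natural killer cells. The sources used here give no age, sex or time of harvest. RHAMMB is an isoform of RHAMM, the hyaluronan-binding protein encoded by Hmmr. Each group thus stands for a single cell line, placed under the skin or into a tail vein. Site of growth and route of injection therefore cannot be told apart. The labels do not say whether libraries of a group came from separate mice, so the spread between them may be technical.

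Insulin is made as a single precursor chain that folds in the endoplasmic reticulum, is cut by the prohormone convertases and carboxypeptidase E, and is stored with zinc in dense granules. Amylin, the product of Iapp, passes through the same convertases and is released with insulin from the same granules. Mice and rats carry a pair of insulin genes: Ins2 has the gene structure shared with other mammals, and Ins1 is a rodent copy that arose from a partly spliced Ins2 transcript and lacks the second intron. Ins2 is the insulin gene outside the islet as well, for example in thymus, whereas Ins1 is nearly restricted to beta cells.

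The coding sequences of the insulin pair show how far their reads can be told apart. The first 270 coding bases of Ins1 and the Ins2 bases aligned to them were read from GRCm38 with the GENCODE M21 annotation, with introns removed. They are written 5′ to 3′, with capitals at each base that differs from the other gene in a pairwise alignment.
Ins1, chr19:52264624-52264893, plus strand: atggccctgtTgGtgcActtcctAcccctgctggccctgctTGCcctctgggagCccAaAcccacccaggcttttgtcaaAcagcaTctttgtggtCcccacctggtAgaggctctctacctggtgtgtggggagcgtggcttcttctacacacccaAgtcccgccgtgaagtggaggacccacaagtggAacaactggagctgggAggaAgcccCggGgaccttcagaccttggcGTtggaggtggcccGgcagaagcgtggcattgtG
Ins2, chr7:142678770-142679533, minus strand: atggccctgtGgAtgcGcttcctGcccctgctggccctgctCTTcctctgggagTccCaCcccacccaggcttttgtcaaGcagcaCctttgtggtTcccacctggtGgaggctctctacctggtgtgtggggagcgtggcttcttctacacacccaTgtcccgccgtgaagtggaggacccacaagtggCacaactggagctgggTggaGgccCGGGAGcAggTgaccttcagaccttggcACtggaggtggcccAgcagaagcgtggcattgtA
The whole Ins1 coding sequence has 327 bases in 1 exon of a transcript with 2 exons, and the Ins2 coding sequence has 333 bases in 2 exons of a transcript with 3 exons. Of 333 aligned columns over the whole length, 302 (90.7%) were identical, 25 were mismatches and 6 were gaps. The longest run without a difference was 56 bases. Of all stretches of 50 bases, 7 of 1013 in the Ins1 transcript and 7 of 429 in this Ins2 transcript occurred in the other gene. No stretch of 75 bases did. The sources used here do not give read length or strand, and how the authors' software divided shared reads between Ins1 and Ins2 was not tested.

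Levels are given in FPKM, fragments per kilobase of transcript and per M (mega) mapped fragments, which divide by the length of the gene model. The table places Ins1 (ENSMUSG00000035804) at chr19:52264323-52265456, Ins2 (ENSMUSG00000000215) at chr7:142678656-142743381 and Iapp (ENSMUSG00000041681) at chr6:142298423-142303961 in GRCm38. GENCODE M21 lists 1 Ins1 transcript of 1062 bases and 9 Ins2 transcripts of 259 to 918 bases, some reaching far upstream of the coding exons. The size of an Ins1 to Ins2 ratio in FPKM therefore depends on the models used, whereas each ratio is built in the same way in all 9 libraries. Slco1a5, on the opposite strand, overlaps Iapp and stood at 0.203 to 0.437 FPKM over the 9 libraries.

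Promoter sequence was on hand for 2 of the 3 members, and it is shown because Ins1 and Iapp took different courses across these libraries. The stretches are from RefSeq on GRCm38.p6, 250 bases before and 50 after the annotated start. Capitals mark TAAT on either strand, the core that homeodomain factors such as Pdx1 bind, and GCCATCTG, the E box of rodent insulin genes that Neurod1 binds with its partners.
Ins1, chr19:52264047-52264346, plus strand: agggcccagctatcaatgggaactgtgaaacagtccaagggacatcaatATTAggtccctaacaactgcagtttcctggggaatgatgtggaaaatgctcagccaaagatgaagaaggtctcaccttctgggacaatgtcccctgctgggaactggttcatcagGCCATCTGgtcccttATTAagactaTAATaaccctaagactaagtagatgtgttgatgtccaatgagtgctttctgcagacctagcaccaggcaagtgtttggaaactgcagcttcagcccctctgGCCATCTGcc
Iapp, chr6:142298175-142298474, plus strand: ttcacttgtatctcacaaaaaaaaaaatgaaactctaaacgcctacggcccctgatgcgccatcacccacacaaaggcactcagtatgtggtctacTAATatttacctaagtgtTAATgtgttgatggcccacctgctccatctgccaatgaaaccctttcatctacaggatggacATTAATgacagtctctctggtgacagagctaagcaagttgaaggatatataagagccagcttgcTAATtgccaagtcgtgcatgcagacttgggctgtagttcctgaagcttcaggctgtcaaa
TAAT occurred at 3 places in the Ins1 stretch and at 5 in the Iapp stretch, where a pair of them overlaps. Of 32851 promoters of 300 bases, 58% held at least 1 TAAT, 20% held at least 3 and 6.86% held at least 5. GCCATCTG occurred at 2 places in the Ins1 stretch and at 0 places in the Iapp stretch. In Ins1 the upstream match of GCCATCTG started 86 bases before the annotated start, and the other lay after the start, at base 41. It was present in 435 of the 32851 promoters (1.32%), of which 3 held at least 2. Only exact matches were counted, and the Iapp stretch holds tccatctg, which differs from GCCATCTG in its first base. These matches describe letters only and say nothing about binding.

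The libraries had similar depth, and their markers were those of a neuroendocrine tumour with some host cells. Estimated depth was 14.4 to 17.8 M fragments, so that a 2 kb transcript hit by a single fragment would read 0.0280 to 0.0347 FPKM. The members lay far above this value in every library. The summed FPKM of 8 neuroendocrine markers was 2077 to 2509 in metastases, 2167 to 2856 for N134-RHAMMB tumours and 2257 to 2691 in N134 tumours. Pdx1, a homeodomain factor of beta cells, stood between 97.2 and 129 FPKM in all 9 libraries. Markers of other islet endocrine cells (glucagon, somatostatin, pancreatic polypeptide, peptide YY and ghrelin) summed to 1.95 to 11.6, 10.3 to 20.6 and 9.81 to 14.3 FPKM in the same order of groups, with Sst listed at 0 in all metastases and Ghrl at 0 in all N134-RHAMMB tumours. None of 5 acinar and duct markers in the table reached 1 FPKM in any library. The 8 hepatocyte markers summed to 3551 to 3776 FPKM in metastases, where all 8 were at 1 FPKM or more, against 8.48 to 8.62 FPKM in N134-RHAMMB tumours and 9.94 to 14.7 FPKM in N134 tumours. In bulk RNA, fewer cells of a type and less RNA per cell cannot be told apart.

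Metastasis 2 stood apart from the other metastases. In it 824 of 12854 tested genes (6.41%) lay at least 2-fold from the mean of metastases 1 and 3 on the log2(FPKM + 1) scale, 224 higher and 600 lower. For metastases 1 and 3 taken in the same way, the shares were 2.17% and 2.24%, and for the 6 subcutaneous tumours 0.443% to 0.871%. Its hepatocyte markers summed to 3689 FPKM, between the values of metastases 1 and 3. Results that rest on the metastases are therefore given with and without it.

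Ins2 was the most abundant protein-coding transcript in all 9 libraries, and its order of groups was metastases, N134 tumours, N134-RHAMMB tumours. Metastases 1, 2 and 3 held 34621, 38131 and 38504 FPKM. In N134-RHAMMB tumours 1, 2 and 4 it stood at 22775, 28390 and 21154 FPKM, and in N134 tumours 1, 2 and 3 at 33317, 30636 and 34119 FPKM. Each of the 3 groups lay outside the range of the others, although the gap between the lowest metastasis and the highest N134 tumour was small. The means were 37085 ± 2142 FPKM in metastases, 24107 ± 3797 FPKM in N134-RHAMMB tumours and 32691 ± 1824 FPKM in N134 tumours (SD, n = 3 each). Ins2 alone took 7.76% to 8.43% of the summed FPKM in metastases, 4.70% to 6.51% of it in N134-RHAMMB tumours and 6.86% to 7.66% in N134 tumours.

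Ins1, the rodent-specific copy, did not follow Ins2. Metastases 1, 2 and 3 held 2649, 824 and 4947 FPKM. For N134-RHAMMB tumours 1, 2 and 4 the values were 4001, 3062 and 4211 FPKM, and for N134 tumours 1, 2 and 3 they were 2056, 1418 and 1537 FPKM. All N134-RHAMMB tumours were above all N134 tumours, and the metastases spanned both groups, with the lowest and the highest value of the 9. The means were 2807 ± 2066 FPKM in metastases, 3758 ± 612 FPKM in N134-RHAMMB tumours and 1670 ± 340 FPKM in N134 tumours (SD, n = 3 each). By rank among all genes of a library, Ins1 was 6th, 42nd and 4th in metastases 1, 2 and 3, 4th or 5th in N134-RHAMMB tumours and 11th to 19th in N134 tumours.

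Iapp was at nearly the same level in both kinds of subcutaneous tumour and varied in metastases. Metastases 1, 2 and 3 held 3139, 6492 and 2049 FPKM. The N134-RHAMMB tumours (1, 2 and 4) held 3587, 3492 and 3233 FPKM, and the N134 tumours (1, 2 and 3) held 3390, 3342 and 3615 FPKM. The 6 subcutaneous tumours thus lay within 3233 to 3615 FPKM, and the metastases held both a value far above this band and a pair below it. The means were 3894 ± 2316 FPKM in metastases, 3437 ± 184 FPKM in N134-RHAMMB tumours and 3449 ± 146 FPKM in N134 tumours (SD, n = 3 each).

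**Figure D1:**
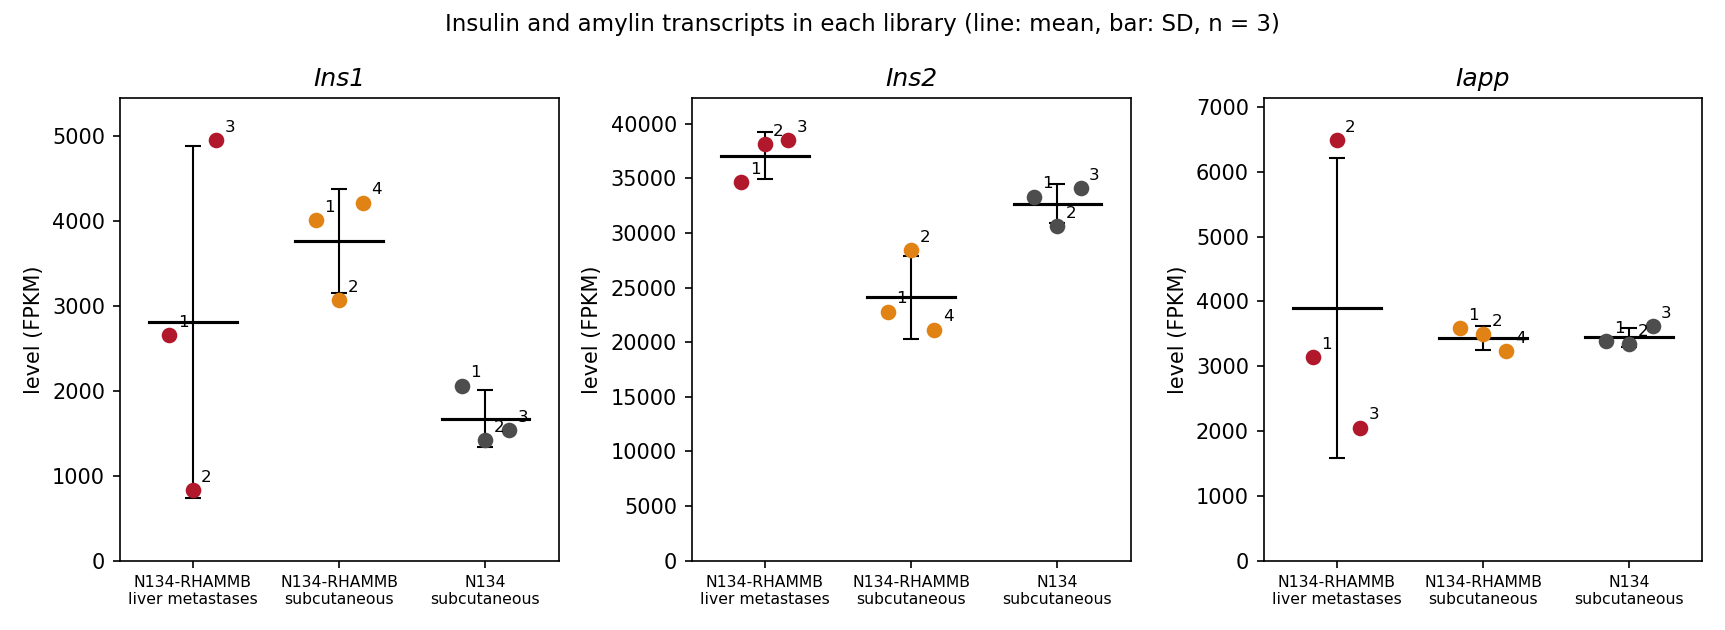
FPKM of Ins1, Ins2 and Iapp (y axes, each from 0) in the 9 libraries, by group; points are libraries with their number, lines are group means and bars the SD (n = 3). Ins1 and Iapp spread widely in metastases (824 to 4947 and 2049 to 6492 FPKM), whereas Ins2 there stayed within 34621 to 38504 FPKM.

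The spread within the metastases set Ins1 and Iapp apart from Ins2. On the log2(FPKM + 1) scale the SD among metastases was 1.31 for Ins1, above that of 99.3% of the tested genes, and 0.84 for Iapp, above that of 97.1%. For Ins2 it was 0.08, above that of 12.3% of genes. Of the 30 genes with a mean of at least 1000 FPKM, 0 had a larger SD among metastases than Ins1, and 2 had a larger SD than Iapp. In N134-RHAMMB tumours the SD was 0.25 for Ins1, 0.22 for Ins2 and 0.08 for Iapp. In N134 tumours it was 0.28 for Ins1, 0.08 for Ins2 and 0.06 for Iapp. Among subcutaneous tumours Iapp was thus the steadiest member of the 3.

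In the model across all genes, the members' largest difference was the higher Ins1 of N134-RHAMMB against N134 tumours, and Iapp stayed within 0.02 of 0 in all 3 comparisons. Differences are of log2(FPKM + 1), from limma fitted to all 9 libraries. Between N134-RHAMMB and N134 tumours they were 1.17 (SE 0.51) for Ins1, -0.45 (SE 0.19) for Ins2 and -0.01 (SE 0.32) for Iapp. Between metastases and N134-RHAMMB tumours they were -0.75 (SE 0.51) for Ins1, 0.63 (SE 0.19) for Ins2 and 0.02 (SE 0.32) for Iapp. Between metastases and N134 tumours they were 0.42 (SE 0.51) for Ins1, 0.18 (SE 0.19) for Ins2 and 0.01 (SE 0.32) for Iapp. Each SE pools the spread within all 3 groups. The wide spread of Ins1 and Iapp among metastases thus also enters the SE between the subcutaneous groups. Without metastasis 2, the SE between the subcutaneous groups was 0.23 for Ins1 and 0.14 for Iapp. The members were chosen with these values known. No p-value or call is therefore given for these 9 differences, and none is offered as significant. Over all 12854 genes limma called 0.194%, 6.56% and 9.93% at adjusted p below 0.05 in the 3 comparisons, in that order. A value that misses the threshold does not show that the groups were alike.

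Read by overlap, Ins1 was higher and Ins2 lower in N134-RHAMMB than in N134 tumours with no overlap of the 3 libraries on each side, and Iapp overlapped. A gap of this kind, in either direction, occurred in 25.3% of the tested genes. Against N134-RHAMMB tumours, Ins2 alone of the members was outside the range, higher in metastases, where 19.8% of genes had no overlap. Against N134 tumours it was again Ins2 alone, higher in metastases, where 25.7% had none. The comparisons share groups, so these statements are not independent of each other.

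Leaving out metastasis 2 moved the Ins1 and Iapp differences of the metastases and moved those of Ins2 by little. Without it the Ins1 mean was 3798 FPKM in metastases, against 3758 FPKM in N134-RHAMMB tumours and 1670 FPKM in N134 tumours. The log2 differences of Ins1 then were -0.04 against N134-RHAMMB tumours and 1.13 against N134 tumours, and the metastases no longer overlapped with the N134 tumours. Iapp then averaged 2594 FPKM in metastases, below the range of both subcutaneous groups, with log2 differences of -0.44 against each. Ins2 differed by 0.61 from N134-RHAMMB tumours and by 0.16 from N134 tumours in that setting. The Ins1 difference between N134-RHAMMB and N134 tumours, at 1.17, uses no metastasis and so could not move. Leaving out metastasis 3 in place of metastasis 2 turned the Ins1 difference of the metastases against N134 tumours to -0.16.

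The Ins1 to Ins2 ratio, which does not change with the scaling of a library or with RNA of cells that lack both transcripts, differed 9.21-fold between its lowest and highest library. It was 0.0765, 0.0216 and 0.128 in metastases 1, 2 and 3. It was 0.176, 0.108 and 0.199 in N134-RHAMMB tumours 1, 2 and 4, and 0.0617, 0.0463 and 0.0450 in N134 tumours 1, 2 and 3. Every N134-RHAMMB tumour was above every N134 tumour, metastasis 3 fell between N134-RHAMMB tumours 2 and 1, metastasis 1 lay between the subcutaneous groups, and metastasis 2 lay below all other libraries. The mean ratio was 0.0755 ± 0.0534 in metastases, 0.161 ± 0.0474 in N134-RHAMMB tumours and 0.0510 ± 0.00929 in N134 tumours (SD, n = 3 each).

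Set against each other, the mean ratio in N134-RHAMMB tumours was 3.15 times that in N134 tumours. In metastases it was 0.470 times that in N134-RHAMMB tumours, with overlap, and 0.637 times without metastasis 2, still with overlap. Against N134 tumours, metastases stood at 1.48 times the mean ratio with overlap, and at 2.01 times with no overlap when metastasis 2 was left out. Of the insulin FPKM in a library, Ins1 made up 2.11% to 11.4% in metastases, 9.74% to 16.6% of it in N134-RHAMMB tumours and 4.31% to 5.81% in N134 tumours.

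With both insulin genes added, the higher Ins1 in N134-RHAMMB tumours did not make up for the lower Ins2. The sum was 39892 ± 3195 FPKM in metastases, 27864.5 ± 3186 FPKM in N134-RHAMMB tumours and 34361 ± 2003 FPKM in N134 tumours (SD, n = 3 each), and no 2 groups overlapped. Relative to N134-RHAMMB tumours the mean sum in metastases was 1.43 times as high. Relative to N134 tumours it was 1.16 times as high in metastases and 0.811 times in N134-RHAMMB tumours.

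Iapp relative to insulin parted the subcutaneous groups, although Iapp itself did not. This gap therefore mainly restates the lower insulin sum of N134-RHAMMB tumours. Iapp is given here per library. As a percentage of the insulin sum Iapp was 8.42%, 16.7% and 4.72% in metastases 1, 2 and 3. It was 13.4%, 11.1% and 12.7% in N134-RHAMMB tumours 1, 2 and 4, and 9.58%, 10.4% and 10.1% in N134 tumours 1, 2 and 3. All N134-RHAMMB tumours lay above all N134 tumours, and the metastases ran from below both groups to above both. The means were 9.94% ± 6.12 in metastases, 12.4% ± 1.18 in N134-RHAMMB tumours and 10.0% ± 0.428 in N134 tumours (SD, n = 3 each). Without metastasis 2 the mean of the metastases was 6.57%, below both subcutaneous ranges.

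**Figure D2:**
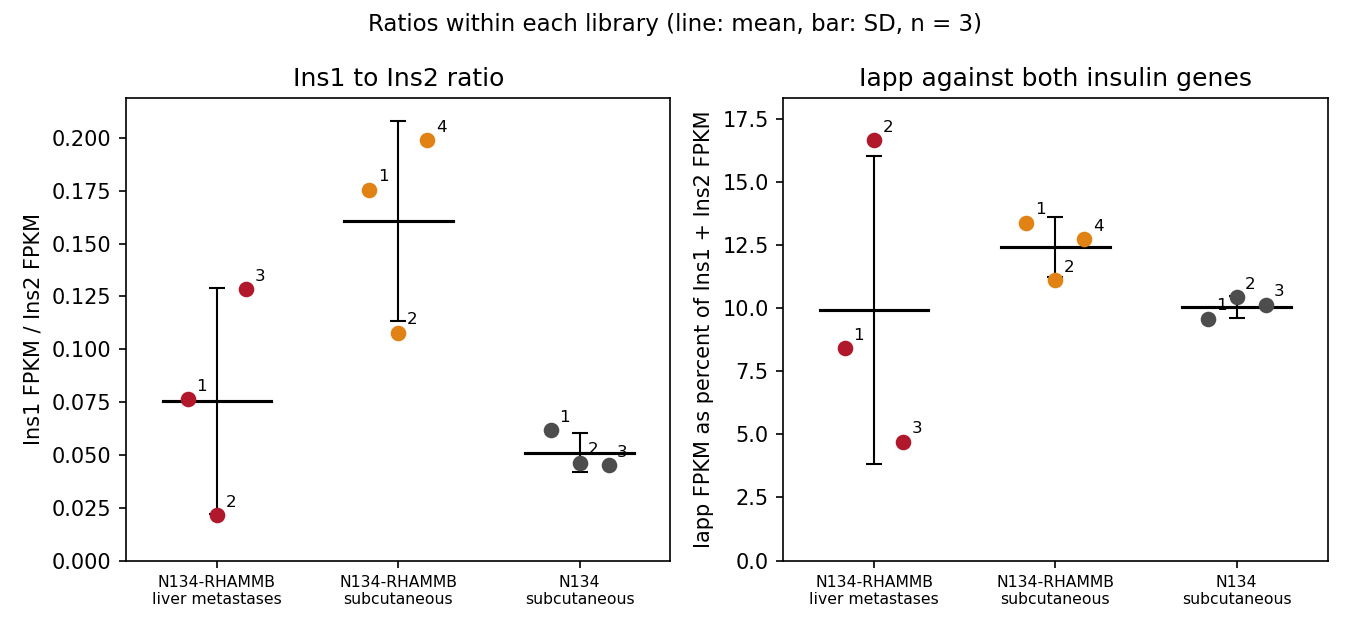
Ins1 to Ins2 ratio of FPKM (left) and Iapp as a percentage of Ins1 plus Ins2 FPKM (right) in the 9 libraries, by group; points are libraries with their number, lines are group means and bars the SD (n = 3). N134-RHAMMB tumours (0.108 to 0.199) lie above N134 tumours (0.0450 to 0.0617) in the ratio, and metastasis 2 is lowest in the left panel and highest in the right.

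Ins1 and Iapp lay at opposite ends of the metastases. Metastasis 2 had the lowest Ins1 and the highest Iapp of the 9 libraries, and metastasis 3 had the highest Ins1 and the lowest Iapp. The ratio of Iapp to Ins1 was 1.18, 7.88 and 0.414 in metastases 1, 2 and 3. It was 0.897, 1.14 and 0.768 in N134-RHAMMB tumours 1, 2 and 4, and 1.65, 2.36 and 2.35 in N134 tumours 1, 2 and 3. Iapp thus exceeded Ins1 in every N134 tumour, and Ins1 exceeded Iapp in metastasis 3 and in N134-RHAMMB tumours 1 and 4. As a description over 9 libraries, which share groups, Pearson's r of log2(FPKM + 1) was -0.77 between Ins1 and Iapp (Spearman's rho -0.60), -0.49 between Ins1 and Ins2 (rho -0.25) and 0.05 between Ins2 and Iapp (rho -0.10). Apart from metastases 2 and 3, Iapp stayed within 3139 to 3615 FPKM while Ins1 ran over 1418 to 4211 FPKM.

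**Figure D3:**
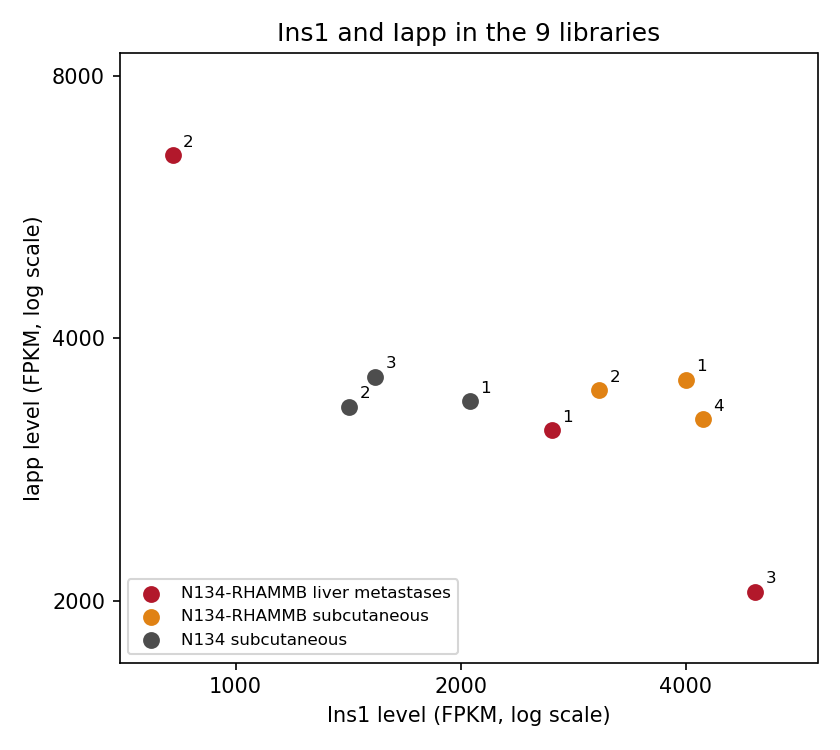
Iapp against Ins1 in FPKM (both axes on a log scale) in the 9 libraries, coloured by group and marked with the library number. Metastasis 2 (824 FPKM Ins1, 6492 FPKM Iapp) and metastasis 3 (4947 and 2049 FPKM) sit at opposite corners, and the subcutaneous groups lie side by side at one Iapp level.

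The 5 genes whose levels ran most like each member were taken from 9503 genes with a mean of at least 5 FPKM, by Pearson's r of log2(FPKM + 1) over the 9 libraries. For Ins1 they were Tomm34 (r 0.989), which binds the Hsp70 and Hsp90 chaperones, Sema3g (0.983), a secreted semaphorin, the centriole protein Cep135 (0.977), Ash2l (0.975), a subunit of histone H3 lysine methyltransferase complexes, and the interferon-induced Ifit2 (0.974). Tomm34 ranged over 28 to 49.8 FPKM in metastases, with metastasis 2 lowest and metastasis 3 highest. It stood at 44.4 to 47.7 FPKM in N134-RHAMMB tumours and at 31.8 to 36.8 FPKM in N134 tumours. This is the order of Ins1 over a narrower range, except that N134-RHAMMB tumours 1 and 4 change places (Spearman's rho 0.983). Without metastasis 2 and N134 tumour 2, the libraries farthest from the Ins1 median, r for these genes was 0.946 to 0.980. For each member the genes were chosen by the highest r over these same libraries. High values, also with libraries left out, follow in part from that choice.

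For Iapp the nearest were the constitutive chaperone Hspa8 (r 0.972), Cacybp (0.959), which binds calcyclin, Epm2aip1 (0.957), Gnpat (0.954), an enzyme of ether lipid synthesis, and the copper transporter Slc31a1 (0.952). Hspa8 stood at 972, 1761 and 745 FPKM in metastases 1, 2 and 3, against 1098 to 1254 FPKM in N134-RHAMMB tumours. Without metastases 2 and 3, r was 0.916 for Hspa8 and 0.838 for Cacybp, but 0.560 for Slc31a1, 0.257 for Gnpat and -0.03 for Epm2aip1, so that the likeness of the last 3 rests on those libraries. For Ins2 the nearest were Rps6kc1 (0.924), Bphl (0.918), a valacyclovir hydrolase, the amino acid transporter Slc38a4 (0.910), Ddt (0.895), a relative of macrophage migration inhibitory factor, and Upb1 (0.884), an enzyme of pyrimidine breakdown. Without N134-RHAMMB tumours 4 and 1, the libraries farthest from the Ins2 median, r was 0.940 for Bphl and 0.899 for Upb1. It was lower for Rps6kc1 (0.792), Slc38a4 (0.728) and Ddt (0.694). Upb1 averaged 29.6 FPKM in metastases, 7.24 FPKM in N134-RHAMMB tumours and 12.9 FPKM in N134 tumours. Hepatocyte markers were also highest in metastases, as given above, and their part in the likeness to Ins2 was not tested.

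Around the members, 85 genes in 5 lists cover the making, storage, release and action of insulin and amylin. They were chosen with earlier results of these data known, and 80 were tested after the filter; Foxa1, Igf1r, Calcr, Calca and Calcb lay under it. Over all lists, limma called 1 of 80 between N134-RHAMMB and N134 tumours (1.25%, beside 0.194% of all genes), with 12 at an unadjusted p under 0.05. Over all genes, 1648 of 12854 lay under that unadjusted p. Limma called 5 of 80 between metastases and N134-RHAMMB tumours (6.25%, beside 6.56%), and 8 of 80 between metastases and N134 tumours (10%, beside 9.93%). Both counts for the metastases include Mme, which passed the filter only through them. Without metastasis 2 the counts were 4, 13 and 16 of 80, beside 193, 1137 and 1571 of all 12854 genes, a larger share in the lists each time. With each subcutaneous library left out in turn the first count was 0, beside 0 to 8 of all genes. Without N134 tumour 3 the last was 5, beside 1003 of all genes. The shares in the comparisons with metastases were, with all libraries, near those of all genes, and the median log2 difference over the lists was 0.00, -0.01 and 0.00 in the 3 comparisons, beside 0.01, -0.06 and -0.03 over all genes.

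Of 19 tested transcription factors of the insulin gene, 0 passed between N134-RHAMMB and N134 tumours in limma, with 3 at an unadjusted p under 0.05. Over all genes, 1648 of 12854 lay under it. Pax4, a homeodomain repressor of the developing beta cell, stood at 31.7 ± 2.74 FPKM in N134-RHAMMB tumours and 19.8 ± 3.21 FPKM in N134 tumours (0.66, adjusted p = 0.203). Myt1, a zinc finger factor of endocrine progenitors, stood at 140 ± 5.10 FPKM in N134-RHAMMB tumours and 110 ± 9.73 FPKM in N134 tumours (0.35, adjusted p = 0.248). Between metastases and N134-RHAMMB tumours 1 of 19 rose and 1 fell. Mafa, which activates the insulin genes in mature beta cells, rose to 68.4 ± 15.8 FPKM in metastases, against 35.5 ± 6.24 FPKM in N134-RHAMMB tumours (0.91, SE 0.20, adjusted p = 0.0218). That call was lost without metastasis 1, without metastasis 3 or without N134-RHAMMB tumour 1. Pax4 fell to 9.09 ± 2.46 FPKM in metastases, a log2 difference of -1.73 (SE 0.19, adjusted p = 1.35e-04). Against N134 tumours Pax4 alone of the 19 passed, and fell as well (-1.07, adjusted p = 0.00443), and Mafa, at 41.1 ± 8.41 FPKM in N134 tumours, did not pass (0.71, adjusted p = 0.0545). It did pass without metastasis 2 (adjusted p = 0.0127) and with median-of-ratios scaling (0.0278) or quantile normalization (0.0407).

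Of 16 genes of proinsulin folding and processing, 1 fell and 0 rose between N134-RHAMMB and N134 tumours. Ero1lb, an oxidase that makes disulfide bonds in proinsulin, stood at 50.8 ± 5.03 FPKM in metastases, 44.2 ± 2.57 FPKM in N134-RHAMMB tumours and 79.8 ± 11.7 FPKM in N134 tumours (SD, n = 3 each). It fell in N134-RHAMMB tumours (-0.83, SE 0.12, adjusted p = 0.0365), a call lost when any of the 6 subcutaneous libraries was left out or the filter was dropped (adjusted p = 0.0629), and in metastases against N134 tumours (-0.64, SE 0.12, adjusted p = 0.00741). Pcsk2, a prohormone convertase, averaged 748 ± 40.9 FPKM in N134-RHAMMB tumours and 493 ± 37.6 FPKM in N134 tumours and did not pass (0.60, adjusted p = 0.223), except without metastasis 2 (0.0202) or with only the 2 groups in the fit (0.0285). Between metastases and N134-RHAMMB tumours 0 of 16 passed in limma, with 2 at an unadjusted p under 0.05, beside 2142 of all 12854 genes. Pcsk1n, which encodes an inhibitor of the other convertase Pcsk1, stood at 15.8 ± 2.44 FPKM in metastases and 9.37 ± 4.41 FPKM in N134-RHAMMB tumours (0.76, adjusted p = 0.134; 0.00455 without N134-RHAMMB tumour 4). Cpe, carboxypeptidase E, stood at 628 ± 224 FPKM in metastases and 794 ± 34.9 FPKM in N134-RHAMMB tumours (-0.41, adjusted p = 0.460). Against N134 tumours 1 of 16 rose in metastases beside Ero1lb, which fell: Dnajc3, a co-chaperone of the unfolded protein response, at 42.5 ± 1.79 FPKM in metastases and 31.4 ± 3.02 FPKM in N134 tumours (0.43, adjusted p = 0.0298). Leaving out 5 of the 9 libraries, each in turn, ended that call (metastasis 1, N134-RHAMMB tumour 1 and each N134 tumour), as did a fit of the 2 groups alone (adjusted p = 0.0714).

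Of 16 granule genes, 0 passed between N134-RHAMMB and N134 tumours in limma, with 2 at an unadjusted p under 0.05. Over all genes, 1648 of 12854 lay under it. Slc30a8, the zinc transporter of insulin granules, stood at 249 ± 24.1 FPKM in N134-RHAMMB tumours and 185 ± 23.2 FPKM in N134 tumours (0.43, adjusted p = 0.365). Syt7, a calcium sensor of granule release, stood at 22.7 ± 5.77 FPKM in N134-RHAMMB tumours and 16.5 ± 3.37 FPKM in N134 tumours (0.42, adjusted p = 0.493). In metastases 1 of 16 fell against N134-RHAMMB tumours, and 1 rose and 1 fell against N134 tumours. Chgb, chromogranin B, an acidic core protein of the granule, fell to 215 ± 49.9 FPKM in metastases, against 552 ± 115 FPKM in N134-RHAMMB tumours and 427 ± 26.1 FPKM in N134 tumours. The log2 differences were -1.36 (SE 0.19, adjusted p = 0.00102) and -1.01 (SE 0.19, adjusted p = 0.00697). Vgf, a granule precursor protein, stood at 6.30 ± 5.18 FPKM in metastases and 14.0 ± 4.75 FPKM in N134-RHAMMB tumours (-1.48, adjusted p = 0.296). Rab3a, a small GTPase of granule docking, rose to 53.3 ± 6.82 FPKM in metastases, against 36.5 ± 2.84 FPKM in N134 tumours (0.53, adjusted p = 0.0184). That call was lost without metastasis 1, metastasis 3 or N134 tumour 3, with adjusted p up to 0.0842.

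Of 15 genes of glucose sensing and coupling, limma called 0 in each of the 3 comparisons, with 1, 1 and 2 at an unadjusted p under 0.05. Over all 12854 genes, 1648, 2142 and 2752 lay under it, in the same order. Slc2a2, the glucose transporter GLUT2 of beta cells and hepatocytes, averaged 80.8 ± 79.5 FPKM in metastases, 58.9 ± 19.4 FPKM in N134-RHAMMB tumours and 133.6 ± 18.8 FPKM in N134 tumours. The subcutaneous groups did not overlap in Slc2a2, as in 25.3% of all tested genes, and the difference did not pass (-1.21, SE 0.69, adjusted p = 0.501). Against N134 tumours the metastases passed in Slc2a2 only without metastasis 3 (adjusted p = 0.0336, and 0.309 with all libraries). Glp1r, the receptor of the incretin GLP-1, stood at 94.0 ± 21.2 FPKM in N134-RHAMMB tumours and 138 ± 36.9 FPKM in N134 tumours (-0.54, adjusted p = 0.547). Abcc8, the regulatory subunit of the ATP-sensitive potassium channel, stood at 198 ± 38.9 FPKM in metastases, 135 ± 22.6 FPKM in N134-RHAMMB tumours and 142 ± 21.9 FPKM in N134 tumours, with adjusted p of 0.102 and 0.125 for the metastases. Trpm5, a cation channel, ranged over 17.4 to 43.6 FPKM in metastases and 37.2 to 41.5 FPKM in N134-RHAMMB tumours (-0.54, adjusted p = 0.353), and passed without metastasis 3 (-0.89, adjusted p = 0.0138).

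Of 14 tested genes of insulin and amylin receptors, signalling and degradation, 0 passed between N134-RHAMMB and N134 tumours in limma, with 2 at an unadjusted p under 0.05. Over all genes, 1648 of 12854 lay under it. In metastases limma called 2 of 14 against N134-RHAMMB tumours (Igf1 and Mme) and 3 of 14 against N134 tumours (Igf1, Ramp1 and Mme), all higher. Mme passed the filter only through the metastases and could not have been counted as lower there. Igf1, the insulin-like growth factor made in liver under growth hormone, rose to 19.8 ± 1.61 FPKM in metastases, against 3.28 ± 1.21 FPKM in N134-RHAMMB tumours (2.32, SE 0.20, adjusted p = 1.79e-05) and 6.91 ± 0.955 FPKM in N134 tumours (1.40, SE 0.20, adjusted p = 9.24e-04). The hepatocyte markers given above moved with Igf1, and their part in its rise was not tested. Igf2, the related growth factor, stood at 182 ± 28.6 FPKM in N134-RHAMMB tumours and 303 ± 36.2 FPKM in N134 tumours (-0.73, adjusted p = 0.329, and 0.0339 without metastasis 2). The subcutaneous groups did not overlap in Igf2, as in 25.3% of all tested genes. Ramp1, which joins the calcitonin receptor to form an amylin receptor, rose to 7.61 ± 2.62 FPKM in metastases, against 3.25 ± 0.234 FPKM in N134 tumours (0.97, adjusted p = 0.0201), and did not pass against N134-RHAMMB tumours, at 4.44 ± 0.433 FPKM (0.61, adjusted p = 0.182). The call against N134 tumours was lost without metastasis 1, without metastasis 3 and without any N134 tumour, and the difference from N134-RHAMMB tumours passed without metastasis 2 (0.90, adjusted p = 0.00255). Calcr, the calcitonin receptor itself, was listed at 0 in all metastases and stood at most at 0.0786 FPKM elsewhere. The remaining call was Mme, the peptidase neprilysin, at 1.33 to 2.01 FPKM in metastases, 0.0340 to 0.409 FPKM for N134-RHAMMB tumours and 0.0516 to 0.304 FPKM in N134 tumours. Its level lay under the 5 FPKM asked of named genes, so it was added after its values were seen. It reached 1 FPKM in metastases alone, so its call carries no weight.

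**Figure D4:**
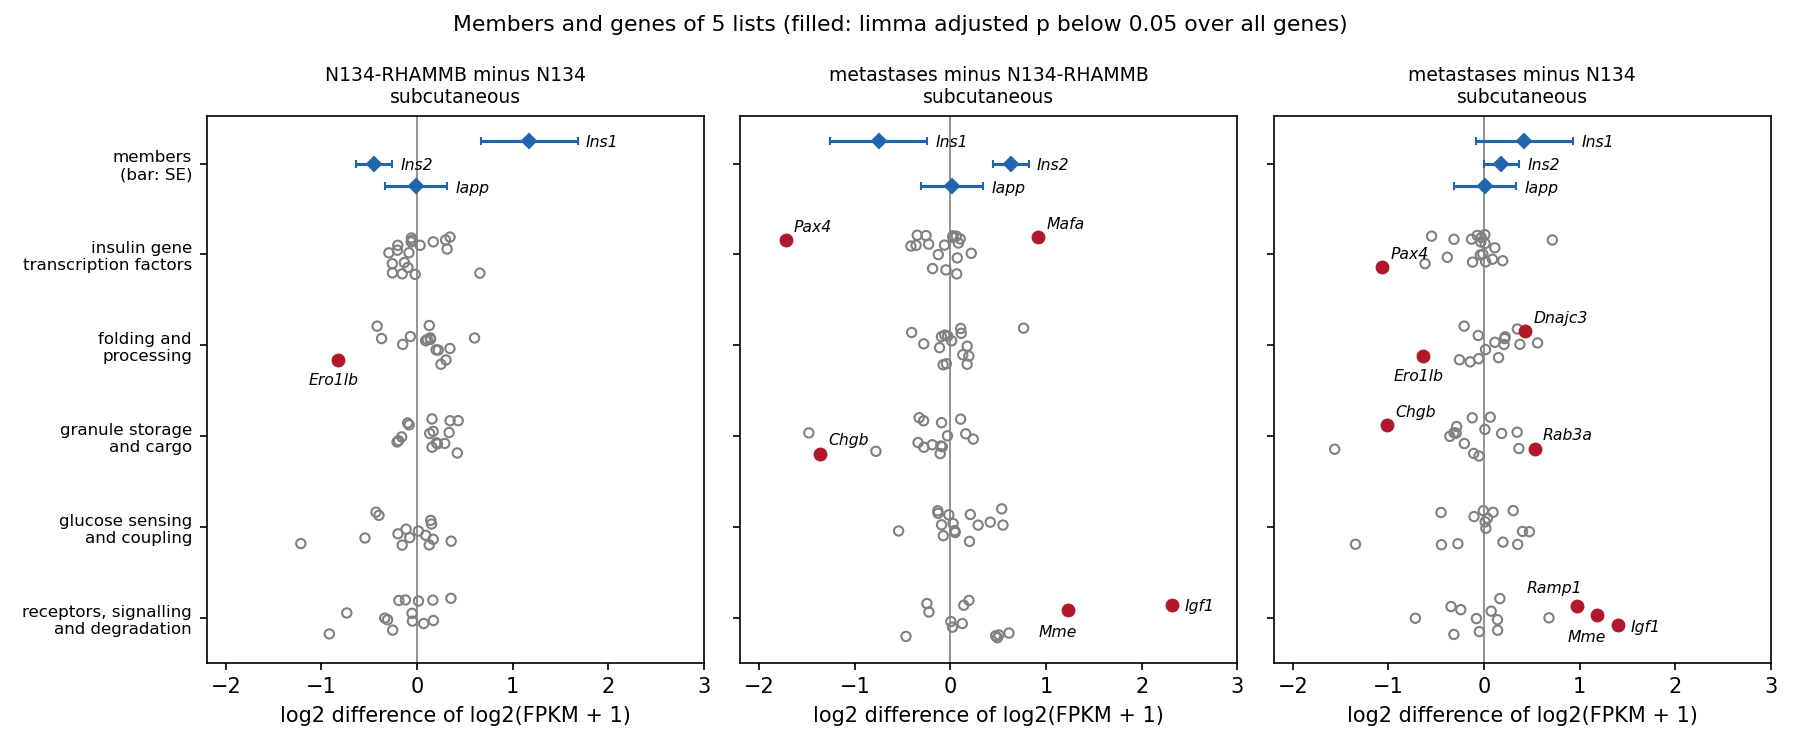
Log2 difference of log2(FPKM + 1) (x axis) of the 3 members (diamonds, bars are SE) and of the tested genes of 5 lists (circles, spread up and down for sight only) in the 3 comparisons; filled circles passed limma at adjusted p below 0.05 over all genes. Calls in the lists number 1, 5 and 8 of 80 from left to right. Mme, which passed the filter only through the metastases, is among the 5 and the 8. The diamonds are shown without calls.

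The library with low Ins1 and high Iapp also held several genes of these lists away from the other metastases. In metastasis 2, 9 of the 80 tested list genes (11.2%, beside 6.41% of all genes) lay at least 2-fold from the mean of metastases 1 and 3, 3 higher and 6 lower. Taken in the same way, metastasis 3 held 6 of the 80 (7.5%, beside 2.24%) and metastasis 1 held 3 (3.75%, beside 2.17%). These 9 genes were singled out after their values were seen. Higher was Ucn3, urocortin 3, a marker of mature beta cells in mouse, at 0.498, 22.4 and 0.555 FPKM in metastases 1, 2 and 3, above the 2.46 FPKM of the lowest N134-RHAMMB tumour only in metastasis 2. Also higher were Isl1, a homeodomain factor, at 42.7, 104 and 29.2 FPKM, and G6pc2, the islet glucose-6-phosphatase, at 355, 826 and 381 FPKM in metastases 1, 2 and 3. Lower was Slc2a2, at 61.2, 12.9 and 168 FPKM, with metastasis 2 lowest and metastasis 3 highest of the 9 libraries, as for Ins1. Sytl4, granuphilin, which docks insulin granules, stood at 300, 54.4 and 432 FPKM, and Vgf at 9.66, 0.325 and 8.91 FPKM in metastases 1, 2 and 3. The other lower genes were Glp1r, at 188, 72.2 and 179 FPKM, the membrane fusion protein Snap25, at 26.7, 10.9 and 29.9 FPKM, and Igf2, at 365, 144 and 312 FPKM. Pdx1 was not among them.

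Hmmr, the gene of RHAMM, ranged over 36.0 to 43.3 FPKM in metastases, 49.2 to 51.3 FPKM in N134-RHAMMB tumours and 39.2 to 44.9 FPKM in N134 tumours. None of its 3 differences passed in limma (adjusted p 0.0991 to 0.708). The sources used here do not describe the RHAMMB construct, so this value does not check the labels.

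Fibroblast, macrophage and erythroid markers also moved between the subcutaneous groups beside Ins1 and Ins2. The 6 fibroblast markers summed to 171 to 390 FPKM in metastases, 272 to 471 FPKM in N134-RHAMMB tumours and 592 to 845 FPKM in N134 tumours. The 6 macrophage markers summed to 124 to 193, 171 to 212 and 224 to 372 FPKM in the same order, and the 4 erythroid markers to 282 to 382, 396 to 861 and 973 to 1947 FPKM. Endothelial markers summed to 42.7 to 46.1, 42.6 to 50.5 and 47.8 to 61.4 FPKM, and muscle markers to 4.56 to 8.13, 11.6 to 176 and 9.96 to 19.1 FPKM. The part of these cells in the levels of Ins1 and Ins2 was not tested.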

How the data were processed

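RNA of 9 mouse tumour samples, 3 in each of 3 groups, was taken up with a Qiagen column kit that keeps small RNA, per the labels' protocols. The submitters' processing notes list bcl2fastq 2.19, STAR 2.5.2, Cufflinks 2.1.1 and the GRCm38 build. The authors deposited 1 table of FPKM values for 22053 rows of protein-coding genes, with a status for each value, per the file headers. The sources used here do not give the library kit, read length, strand or annotation release. FPKM divide by model length and library size, so a gene's value falls when others take more of a library, and Ins1 and Ins2, near-identical in part, can exchange reads.

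Rows with a failed estimate (7) were left out, and 102 rows repeating a symbol were reduced to the locus with the highest mean. All 27 member values had status OK. The 12854 genes with at least 1 FPKM in at least 3 libraries were tested on log2(FPKM + 1) with limma 3.58.1 in R 4.3.3, in 1 model of all 9 libraries with an intensity trend. The threshold was a 2-sided p of 0.05 after Benjamini-Hochberg adjustment over these genes. Differences on this scale understate the change of low genes, and every p-value reflects the spread between these libraries alone. No exact permutation test was run, since 3 against 3 cannot give less than p = 0.1. Table starts were raised by 1, since 82.1% of 21810 rows matched by ID to GENCODE M21 began 1 base below the annotation. For depth, the FPKM of a single fragment was read from low values of 1524 genes with 1 transcript. The limma step was tested on simulated data. Other work was done in Python 3.11.15 with Biopython 1.88.

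The members, the gene lists and the naming rule were chosen with earlier results of these data known. Named genes are, per list and comparison, up to 4 in each direction that passed and averaged at least 5 FPKM in whichever group was higher, or the 2 largest differences at that mean where fewer than 2 passed, plus the 5 genes most like each member and Hmmr. Alternatives were a pseudocount of 0.1, other filters and scalings, only the 2 groups compared, the replicate number as a block, other ways to average the ratio, and each library left out.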

Additional observations from a re-analysis of the deposited data

How the results depend on the processing

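The number of genes that limma called between N134-RHAMMB and N134 tumours was 25 and changed most: it was 15 with a mean of at least 5 FPKM, 169 with only those 2 groups in the fit, and 0 to 193 with each library left out. It was 0 without each N134 tumour and 193 without metastasis 2. Metastases enter this count through the spread, which is pooled over the 3 groups. With a mean of at least 5 FPKM, the counts for metastases fell to 347, against 843 with the usual filter, for N134-RHAMMB tumours and to 594, against 1276, for N134 tumours; fewer genes were tested there. Leaving out libraries gave 650 to 1137 and 882 to 1571. List calls between the subcutaneous groups, 1 of 80, were 0 with no filter and 3 with only those groups, and 0 to 4 with each library left out. Those for metastases were 4 to 13 against N134-RHAMMB tumours and 5 to 16 against N134 tumours, where quantile normalization gave 13, against 8 (1579 of all genes, against 1276).

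Replicate numbers did not pair the libraries: deviations of same-numbered libraries correlated at -0.003 to 0.102. The replicate block gave 1 call between the subcutaneous groups over all genes and 0 in the lists, where Ero1lb was then at adjusted p = 0.193. With it Mafa (metastases against N134-RHAMMB tumours, 0.124), Dnajc3 (0.0712) and Ramp1 (0.0538, both against N134 tumours) did not pass, and Pcsk1n (0.0154) and Abcc8 (0.0466) passed between metastases and N134-RHAMMB tumours.

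Ins1 differences with each library left out were 1.07 to 1.33 between the subcutaneous groups, -1.33 to -0.04 for metastases against N134-RHAMMB tumours and -0.16 to 1.13 against N134 tumours. For Iapp they were -0.04 to 0.04, -0.44 to 0.39 and -0.44 to 0.39, and for Ins2 -0.57 to -0.36, 0.54 to 0.75 and 0.14 to 0.23. Quantile normalization set all 3 Ins2 differences to 0, since the top gene of every library then has the same value. Scaling to the neuroendocrine list moved Ins2 in metastases against N134-RHAMMB tumours to 0.84, against 0.63. The mean Ins1 to Ins2 ratio ran over 0.0491 to 0.102 in metastases, 0.142 to 0.187 for N134-RHAMMB tumours and 0.0457 to 0.0540 in N134 tumours. For the named list genes, Mme and Hmmr, 231 values kept direction and side of the threshold under settings other than leaving out a library, 7 lost a call and 5 gained one. With a library left out, 285 kept it, 22 lost and 8 gained. The FPKM table carries no counts, so counting error is not given.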
